A study of Mus musculus with 2 samples.

Results

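The genes described here are the Hox genes of mouse clusters A, B, C and D, followed in embryonic fibroblasts with and without loss of THOC5 and before and after serum. Members were all genes whose symbol on the array was Hox, a cluster letter from a to d and a number. They were 39 of the 28233 genes with a symbol on the array, represented by 44 probes. For the 5 genes with more than 1 probe, the probe with the highest mean log2 signal was used. The accession of each of the 39 chosen probes carried the same symbol in the RefSeq annotation.

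RNA was hybridised to 2 dual-color Agilent arrays, 1 per condition. The cells were immortalized mouse embryonic fibroblasts (MEF) on a C57BL/6 x B6:129 Ola background, in which both THOC5 alleles are flanked by lox sites (flox/flox) and Cre fused to a tamoxifen-responsive estrogen receptor is expressed from the Rosa26 locus. Cells on the control array, labelled wildtype, thus carried the floxed alleles and Cre as well and had no tamoxifen according to the labels. Cells on the other array, labelled THOC5 knockdown, had tamoxifen for 2 d by the label. The cell culture section of the study's methods gives a shorter exposure to tamoxifen. There it was followed by recovery in growth medium, serum starvation and then stimulation with fetal calf serum (FCS). The study's chromatin precipitation methods and several of its figure legends give 2 d, like the label. On both arrays Cy3 carried RNA of unstimulated cells and Cy5 RNA of cells after 1 h of FCS, and the dyes were not swapped. With a single array a condition, differences have no replicate check and no p-value is given, and effects of the dye, of tamoxifen itself and of the culture cannot be told apart from serum and THOC5 loss.

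Hox genes encode homeodomain transcription factors and lie side by side in clusters, in the order in which they are used along the body from head to tail. Genes with the same number in different clusters are paralogues, low numbers marking anterior and high numbers posterior or distal positions. Fibroblasts keep the Hox pattern of the place they came from through many divisions in culture, a memory held in part by Polycomb and trithorax group proteins on chromatin.

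Each array gave 43020 spots of probes other than controls, of which 62.1% to 64.4% were well above background by channel and 0 were saturated. The lowest signal called well above background was 11.2 in Cy3 on both arrays and 12.0 in Cy5 on the knockdown array. Thoc5 itself (probe at chr11:4828807-4828866, mm9) had processed signals of 4808 in Cy3 and 3047 in Cy5 on the control array and of 546 and 455 on the THOC5 knockdown array. After scaling between arrays this was 7.09-fold lower in Cy3 and 5.39-fold lower in Cy5, so Thoc5 followed the labels. Which part of the gene is flanked by lox sites was not given in the sources used here. All 10 fibroblast markers examined, among them Col1a1, Vim and Pdgfrb, were well above background in all 4 channels. Markers of other lineages were above background in all 4 channels in part, with 3 of 5 epithelial, 4 of 5 endothelial, 2 of 5 haematopoietic, 3 of 4 neural, 2 of 4 pluripotent and 1 of 4 skeletal muscle markers. Of all genes with a symbol 60.9% were, so these counts alone do not mark a lineage. The markers above background in all 4 channels included Krt8, Krt18 and Krt5 of epithelia, Kdr of endothelium, Itgam of myeloid cells, Sox10 of neural crest and Myod1 of muscle. Those above it in no channel included Cdh1, Tek, Gfap and Myog.

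The first question was which Hox genes these fibroblasts express. A gene was called detected where its probe was well above background in both channels of both arrays. That held for 23 of the 39 Hox genes, 59.0%, close to the 60.9% of all genes with a symbol, so the share for the whole class was near the background. The distribution over the clusters was uneven. In HoxA 8 of 11 genes were detected, in HoxB 8 of 10, in HoxC 7 of 9, and in HoxD 0 of 9. None of the 9 HoxD probes was called well above background in any of the 4 channels, and their signals lay between 2.36 and 11.3, the highest being Hoxd4 in Cy3 of the knockdown array. They included Hoxd1 and Hoxd3 at the anterior end, Hoxd8 and Hoxd9 in the trunk range and Hoxd13, the gene of digit formation, at the distal end.

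**Figure D1:**
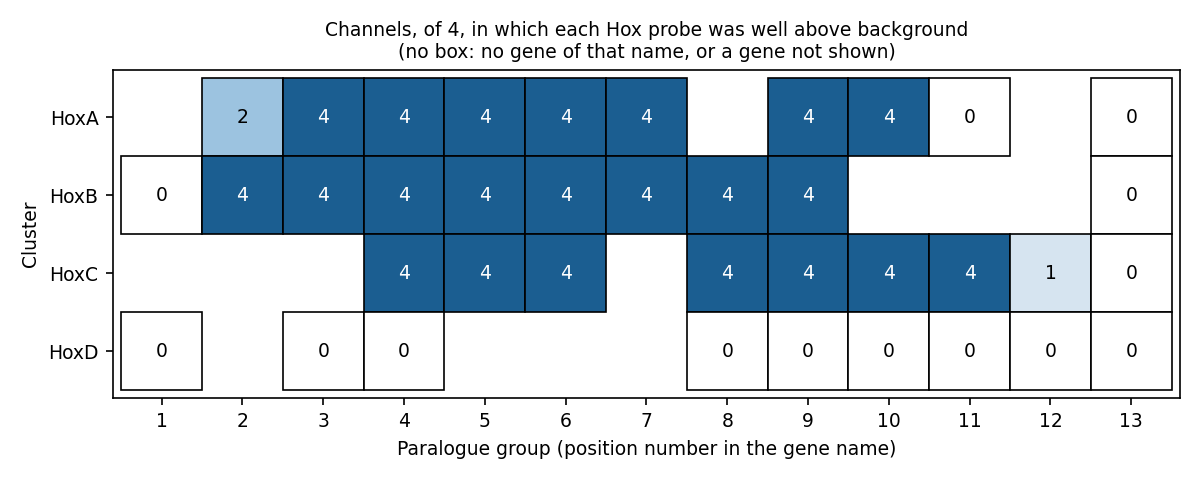
The grid shows the 4 clusters as rows and the 13 paralogue groups as columns, and the number in each box is the number of channels, of 4, in which the probe was well above background. HoxA, HoxB and HoxC form an unbroken block apart from Hoxa2, ending at Hoxa10, Hoxb9 and Hoxc11, while the HoxD row holds 0 throughout. The grid shows all but 1 of the 39 genes.

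Along the clusters, detection followed position. In HoxA, HoxB and HoxC, 21 of the 22 genes at positions 2 to 10 were detected. The exception was Hoxa2, the gene that patterns the second pharyngeal arch, whose signals were 13.3 and 13.4 in Cy3 on the control and THOC5 knockdown arrays and 5.90 and 7.49 in Cy5. It was well above background in Cy3 on both arrays and in Cy5 on neither. Of the 6 genes at positions 11 to 13 of these clusters, Hoxc11 was the only one detected, with signals of 109 and 78.2 on the control array and 101 and 92.1 on the knockdown array. Hoxa11 and Hoxa13, Hoxb13 and Hoxc13, genes of the distal limb and the caudal end of the body, were called above background in no channel. Hoxc12 was called so only in Cy3 of the knockdown array, at 15.5 against 3.76 in Cy3 of the control array, which after scaling is at least 1.54-fold higher. At the anterior end Hoxb1, a hindbrain gene, was not detected.

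Hoxb1 and Hoxa11 were printed as 10 spots each on both arrays. None of the spots used for either gene was well above background on either array, and 1 of the 10 Hoxb1 spots on the control array was, but was marked as an outlier by the scanner software. The second probes of Hoxa13 and Hoxd11 were, like the first, above background in 0 channels. A gene read by a single probe below background is not thereby shown to be silent.

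The sequences below are the stretches of probes that carry the results on Hoxa3, Hoxb5, Hoxa5 and Hoxb8, with Hoxd8 as the undetected paralogue of Hoxb8. For each the opening 30 of 60 bases are printed in the direction of the probe, as the scanner files give them.
Hoxa3 (chr6:52119087-52119146): gctagatttgttttgagagttttacattcc
Hoxb5 (chr11:96167130-96167189): taggccccacaaggcctagtctggaagcgt
Hoxa5 (chr6:52152049-52152108): gtgtaattaatgctgttgtagaggtgactt
Hoxb8 (chr11:96146576-96146635): ttctgttgtctgcgcctgaaaagggcggaa
Hoxd8 (chr2:74545171-74545230): gtttgcctcaacaacataaacttcctaatg
Coordinates are on mm9 and cover the whole probe. Over the 741 pairs of the 39 chosen probes, the longest run of identical bases was 11 (Hoxb4 and Hoxc11), so paralogues were read by clearly different sequences. Whether a probe lies in coding or non-coding sequence was not analysed here, since no annotation of the files' build was used.

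Promoter sequences were available in the RefSeq tables (GRCm38.p6) for 22 of the 39 genes, as 24 windows of 300 bases, 250 of them before the transcription start. CpG dinucleotides were counted because Hox promoters are known CpG islands. The median was 13.5 CpG in the 10 windows of detected genes (range 4 to 29) and 17.5 in the 14 windows of undetected genes (range 4 to 45), against 7.0 over all 32851 windows. The motif CCAAT, searched on both strands, was in 5 of the 10 windows of detected and 10 of the 14 windows of undetected genes, against 37.4% of all windows. TAATTA, which holds the TAAT core bound by homeodomains and reads the same on both strands, was in 0 of 10 and 2 of 14, against 5.29% of all. Both windows that held TAATTA belonged to the same gene, Hoxd11. The 100 bases before the start of Hoxb8 and Hoxd8, the same paralogue position with and without signal, both hold CCAAT on the printed strand, shown in capitals.
Hoxb8 (chr11:96281805-96281904, plus strand, GRCm38.p6): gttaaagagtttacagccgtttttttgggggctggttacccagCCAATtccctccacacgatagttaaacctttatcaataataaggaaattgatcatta
Hoxd8 (chr2:74704515-74704614, plus strand, GRCm38.p6): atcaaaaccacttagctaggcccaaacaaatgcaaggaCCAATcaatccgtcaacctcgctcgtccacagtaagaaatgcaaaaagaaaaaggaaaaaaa
The motif began 57 bases before the start in Hoxb8 and 62 bases before it in Hoxd8. It did not separate the detected from the undetected paralogue, and a match in letters is no evidence of binding.

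The second comparison was the response to 1 h of serum in control cells, given as the log2 ratio of processed signals, Cy5 to Cy3, within the array. Most Hox genes were lower after serum than before, as measured against all detected genes, and this held with and without dye normalization. The median over the 23 detected Hox genes was -0.48, that is 1.40-fold lower, and over all 17199 detected genes it was -0.02. Of the 23 genes 21 were below 0, 91.3%, against 53.3% of all genes. Without dye normalization the Hox median was 0.32, while the median of all genes moved to 0.83, so relative to all genes the Hox median was -0.51 on that scale and -0.46 as processed. In both cases 21 of the 23 genes lay below the median of all genes. By cluster the median was -0.59 in HoxA, -0.35 in HoxB and -0.52 in HoxC.

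A change of 2-fold or more was counted. On the control array 5 of the 23 Hox genes, 21.7%, were lower by that much, against a background of 1.55% of all detected genes. They were Hoxa3, Hoxb3, Hoxb5, Hoxc5 and Hoxc8. In the other direction 1 gene, Hoxb8, was higher by 2-fold or more, 4.35% against 2.40% of all genes. Without dye normalization, where all genes lay 0.83 above 0 at the median, 0 Hox genes were lower and 2 higher, and with normexp and loess 2 were lower and 1 was higher. Each value below rests on 1 spot of 1 probe, and its error is the one the scanner software assigns to that spot, which covers technical error within an array and not the spread between cultures. The median of that error over the Hox genes was 0.21, and 14 of the 23 genes were more than 2 errors from 0, against 18.6% of all detected genes. Between the spots of 268 probes printed 10 times the SD was smaller, with a median of 0.028.

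Hoxa3, which is required for the thymus and parathyroid, had a processed signal of 370 in unstimulated and 146 in serum-stimulated control cells, a log2 ratio of -1.34 ± 0.24 (software error). Hoxb5, a trunk gene needed for placement of the forelimb girdle, went from 345 to 136, also -1.34 ± 0.24. Hoxc5, its paralogue, went from 129 to 51.2, -1.34 ± 0.25. These 3 genes thus shared a 2.53-fold lower signal although they lie on different chromosomes. Hoxc8, a regulator of the brachial and thoracic segments, went from 54.4 to 23.0 (-1.24 ± 0.29), and Hoxb3, a hindbrain and neck gene, from 448 to 217 (-1.05 ± 0.23). A second probe for Hoxb3 gave 316 and 215, -0.55, which is in the same direction but short of 2-fold. With signals raised to a floor of 50, Hoxc8 came to -0.12, since both of its signals were near or below that value.

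The genes just short of 2-fold were Hoxa9, known from haematopoietic stem cells, at -0.98 ± 0.23 and Hoxa7 at -0.90 ± 0.22. A second probe for Hoxa9 gave -0.75. Hoxa10, a gene of the uterus and the lumbar region, was at -0.71, Hoxc9 at -0.62, Hoxb7 at -0.59 and Hoxc6 at -0.52. The remaining genes below 0 ranged from -0.48 for Hoxa4 and Hoxc11 to -0.03 for Hoxb2, with Hoxb9 at -0.36, Hoxb4 at -0.34, Hoxc4 at -0.28, Hoxa6 at -0.26, Hoxc10 at -0.25 and Hoxb6 at -0.08. Neighbours in a cluster therefore differed. In HoxB, Hoxb3 and Hoxb5 were lower by 2-fold or more, while Hoxb2, Hoxb4 and Hoxb6 beside them were between -0.34 and -0.03.

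Paralogues did not all move alike either. At position 3 both detected genes were lower by 2-fold or more, Hoxa3 at -1.34 and Hoxb3 at -1.05. At position 4 the 3 genes lay between -0.48 and -0.28, and at position 6 between -0.52 and -0.08. At position 5 the range was -1.34 to 0.42 and at position 8 it was -1.24 to 1.36. These wide ranges came from the only 2 genes above 0. Hoxa5, a gene of lung and respiratory tract development, had 126 before and 169 after serum, 0.42 ± 0.21. Hoxb8, which acts in the myeloid lineage and the caudal neural tube, had 89.1 before and 229 after, 1.36 ± 0.24, a 2.57-fold higher signal.

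**Figure D2:**
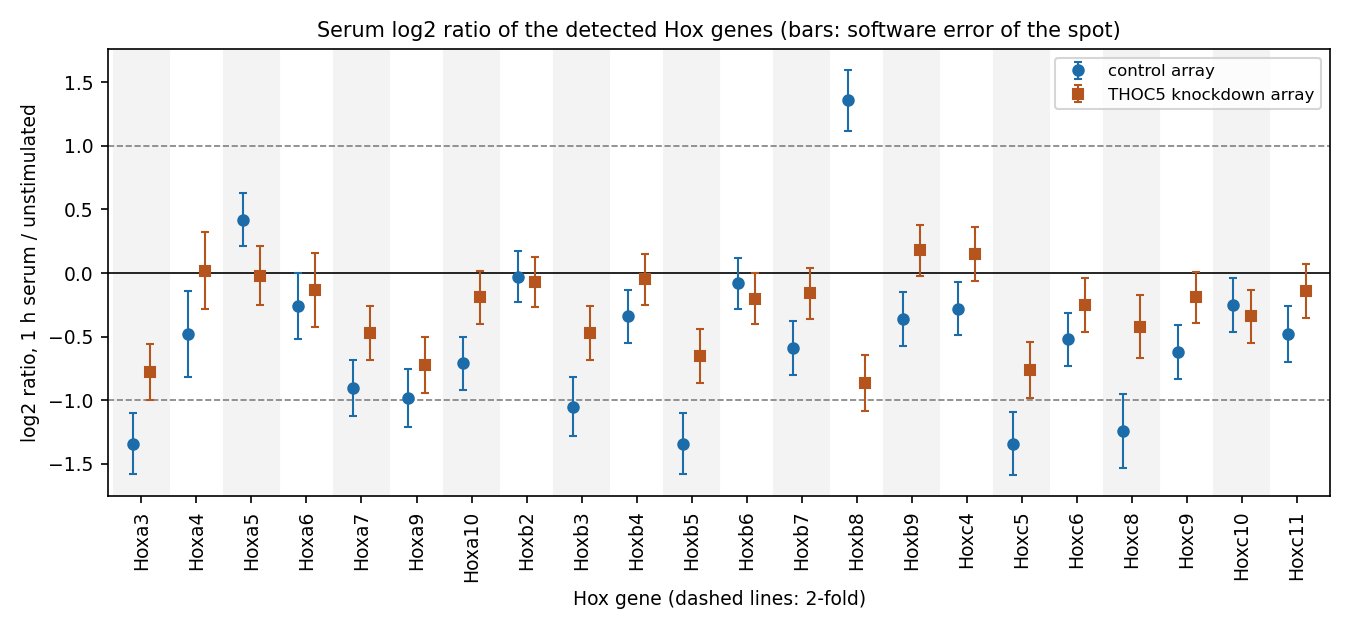
The vertical axis is the serum log2 ratio (1 h FCS over unstimulated, after dye normalization) for 22 of the 23 detected Hox genes, with circles for the control and squares for the THOC5 knockdown array, bars for the software error and dashed lines at 2-fold. On the control array 20 of those plotted lie below 0 (21 of the 23 lie below the median of all genes without dye normalization, where the Hox median itself is 0.32) and Hoxb8 stands at 1.36, on the knockdown array Hoxb8 is at -0.86.

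Restricting the genes to those with signals over 100 in all 4 channels, a limit chosen after the values were seen, left 15 Hox genes with a median of -0.52 on the control array. Of these 3 were lower and 0 higher by 2-fold or more, against 0.904% and 1.90% of the 12720 genes of that brightness. Of the genes past 2-fold, Hoxb8, Hoxc5 and Hoxc8 have at least 1 signal of 100 or less and are left out there. Dim genes passed 2-fold more often, 3.37% of 4479 genes in the lower direction.

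The same ratio on the THOC5 knockdown array was smaller for most genes. The median over the 23 Hox genes was -0.19, with -0.01 over all genes, and 19 of 23 were below 0. Without dye normalization the Hox median was 0.57 and that of all genes 0.76, so the Hox median was -0.19 relative to all genes on that scale and -0.18 as processed. By 2-fold, 0 Hox genes were higher, against 0.762% of all genes, and 0 were lower, against 0.215%. The genes furthest below 0 were Hoxb8 at -0.86 ± 0.22, Hoxa3 at -0.78 ± 0.22, Hoxc5 at -0.76 ± 0.22, Hoxa9 at -0.72 ± 0.22 and Hoxb5 at -0.65 ± 0.21. At the other end were Hoxb9 at 0.18, Hoxc4 at 0.15 and Hoxa4 at 0.02. Altogether 7 of the 23 genes were more than 2 errors from 0, against 7.27% of all genes.

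Set side by side, 17 of the 23 genes were below 0 on both arrays and 0 above 0 on both. Below 0 on the control array only were 4 genes, among them Hoxa4, Hoxb9 and Hoxc4, and Hoxa5 and Hoxb8 were above 0 on the control array only. For 20 of the 23 genes, 87.0%, the value was closer to 0 on the knockdown array, as it was for 63.6% of all genes. The exceptions were Hoxb2 (-0.03 and -0.07), Hoxb6 (-0.08 and -0.20) and Hoxc10 (-0.25 and -0.34). All were closer to 0 than the Hox median of -0.48 on the control array. On the knockdown array Hoxb6 and Hoxc10 were further below 0 than the Hox median of -0.19. The second probe of Hoxa9 also went the other way, at -0.75 on the control and -0.93 on the knockdown array. Across the 23 genes, which share both arrays and are not independent replicates, Pearson's r between the arrays was 0.27 and Spearman's rho 0.52. Without Hoxb8 they were 0.80 and 0.73, and over all 17199 genes r was 0.67, so apart from Hoxb8 the order of the genes was largely kept.

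The difference between the arrays, the serum log2 ratio on the knockdown array minus that on the control array, had a median of 0.43 over the Hox genes and 0.01 over all genes. It was above 0 for 18 of 23 genes, with the largest values for Hoxc8 (0.83 ± 0.38), Hoxb5 (0.68 ± 0.32), Hoxc5 (0.58 ± 0.33), Hoxa3 (0.57 ± 0.32) and Hoxb3 (0.57 ± 0.31). In steps of 2-fold, 0 Hox genes had a higher ratio on the knockdown array, against 0.808% of all genes. Hoxb8 alone had a lower ratio by that much, 4.35% against 1.16%. In total 3 of the 23 genes differed by more than 2 errors, against 6.31% of all genes. The value of Hoxc8 rests on signals that were mostly below 50, and with a floor of 50 it was 0.12. A second probe for Hoxb3 gave 0.13. The spike-in controls, 10 synthetic RNAs with 32 spots each that were added to the samples and should not respond to serum, moved the same way, their log2 ratio being higher on the knockdown array by 0.24 on average (0.15 to 0.31). With that shift taken off, a step added after the values were seen, the Hox median was 0.18 and that of all genes -0.24. Of the 23 Hox genes 17 were then above 0. The step takes the same amount off every gene, so the distance of 0.42 between these medians could not change by it. With the log ratios of both arrays brought to the same spread the Hox median was 0.22 and that of all genes 0.01. The part of that shift in the Hox difference was not tested.

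Hoxb8 was the only gene with serum ratios of opposite sign on the arrays that were both beyond their software error. Its processed signals were 89.1 unstimulated and 229 after serum on the control array, and 177 unstimulated and 97.4 after serum on the knockdown array. The pair of high values thus came from serum-stimulated control cells and unstimulated knockdown cells. Its serum log2 ratio was 1.36 ± 0.24 in control and -0.86 ± 0.22 in knockdown cells, a difference of -2.22 ± 0.33. The sign of both ratios was kept under each alternative run, with 1.01 to 2.12 in control and -0.86 to -0.14 in knockdown cells, and the difference ranged from -2.47 to -1.61. The probe was printed once per array, the software marked neither spot as an outlier, and no second probe read this gene. The neighbours Hoxb7 (-0.59 and -0.16) and Hoxb9 (-0.36 and 0.18) did not share the pattern.

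**Figure D3:**
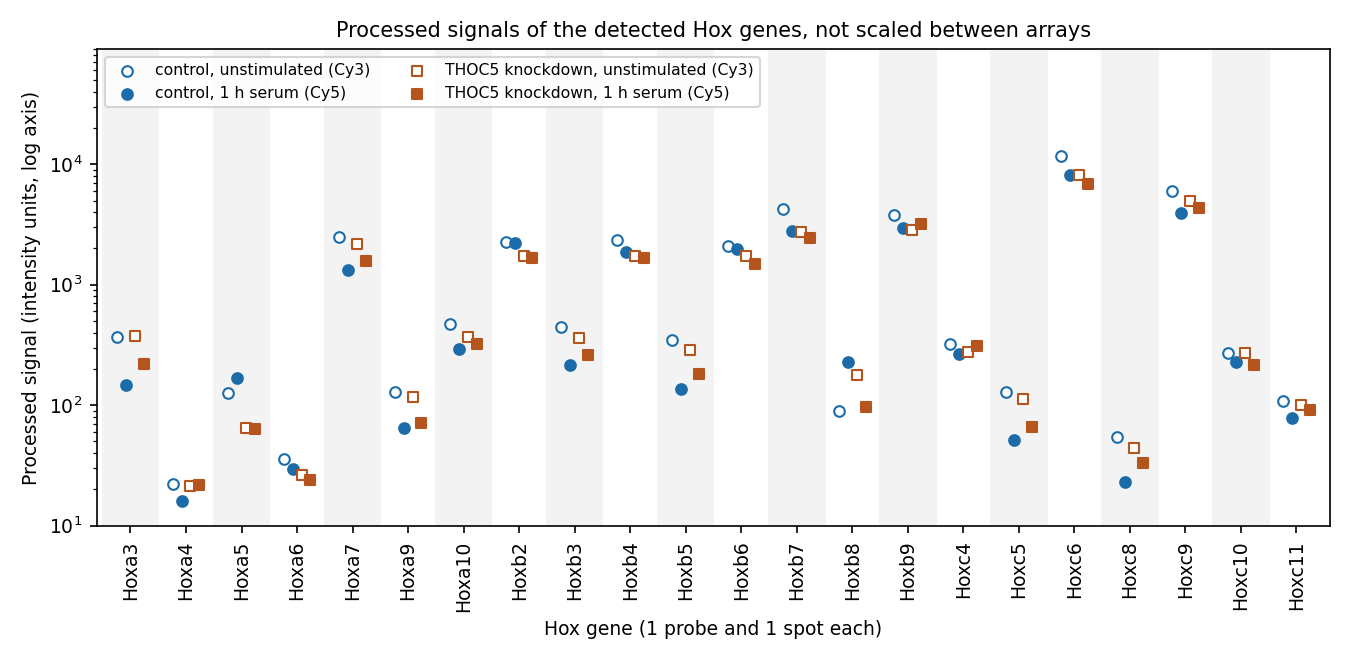
Processed signals in intensity units on a log axis for 22 of the 23 detected Hox genes, with circles for control and squares for THOC5 knockdown, open for unstimulated (Cy3) and filled for 1 h FCS (Cy5). Signals are not scaled between arrays and levels of different genes are not comparable, since each probe binds with its own strength. For Hoxb8 the filled circle (229) and the open square (177) are the high values, and for Hoxa5 both squares (64.6 and 63.7) lie below both circles (126 and 169).

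The next question was whether loss of THOC5 shifted the level of Hox transcripts. For this the signals of the arrays were scaled to each other and compared within a channel. In bulk RNA, fewer cells of a kind and less RNA per cell cannot be told apart. In unstimulated cells (Cy3) the median over the Hox genes was -0.05, against 0.00 over all genes. Below 0 were 13 genes and above it 10. Hoxb8 was the only one higher by 2-fold or more, 4.35% against a background of 1.24%, at 1.19 ± 0.21. By 2-fold 0 were lower, against 1.44% of all genes. Hoxa5 came nearest, at -0.78 ± 0.22, and these 2 genes were the ones more than 2 errors from 0, against 16.7% of all genes. The other 21 genes lay between -0.33 for Hoxb7 and 0.25 for Hoxa3. Without any scaling the Hox median was -0.29, while that of all genes was -0.26.

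After 1 h of serum (Cy5) the picture differed. The Hox median was 0.39 higher on the knockdown than on the control array, against 0.00 over all genes, and 18 of 23 genes were above 0. Without scaling it was 0.15, with -0.26 over all genes, or 0.41 relative to them. With normexp and loess it was 0.22, with 0.00 over all genes, and with a floor of 50 it was 0.27. In HoxC all 7 detected genes were above 0, from 0.06 for Hoxc6 to 0.69 for Hoxc8, with a median of 0.45. The HoxA median was 0.36 and the HoxB median 0.13. None reached 2-fold in this direction, where 1.61% of all genes did, the highest being Hoxa3 at 0.81 ± 0.21, Hoxc8 at 0.69 ± 0.31 (0.00 with a floor of 50) and Hoxb5 at 0.63 ± 0.21. The genes that were lowest after serum in control cells were thus among the highest here. Both comparisons use the Cy5 channel of the control array, so these are not separate observations. The Cy3 and Cy5 differences and the difference of serum ratios given above are not separate results either. Before scaling, the Cy5 minus the Cy3 difference of a gene equals its difference of ratios by construction. Altogether 11 of the 23 genes were more than 2 errors from 0, against 18.6% of all genes.

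Hoxa5 and Hoxb8 were lower by 2-fold or more after serum in knockdown cells, 8.70% of the Hox genes against 1.62% of all genes. Hoxa5 had signals of 126 and 169 on the control and 64.6 and 63.7 on the knockdown array, and was at -0.78 ± 0.22 in Cy3 and -1.22 ± 0.22 in Cy5. It was the only Hox gene below 0 by more than 2 errors in both channels. Over the alternatives it stayed below 0, from -0.96 to -0.44 in Cy3 and from -1.41 to -0.70 in Cy5. Hoxb8 was at -1.03 ± 0.21 in Cy5 and, as given above, at 1.19 in Cy3, from the same spots as its serum ratios. With normexp background correction and loess, changed together, it was at 0.80 in Cy3 and -0.82 in Cy5, so the direction was kept and the 2-fold limit was not reached.

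**Figure D4:**
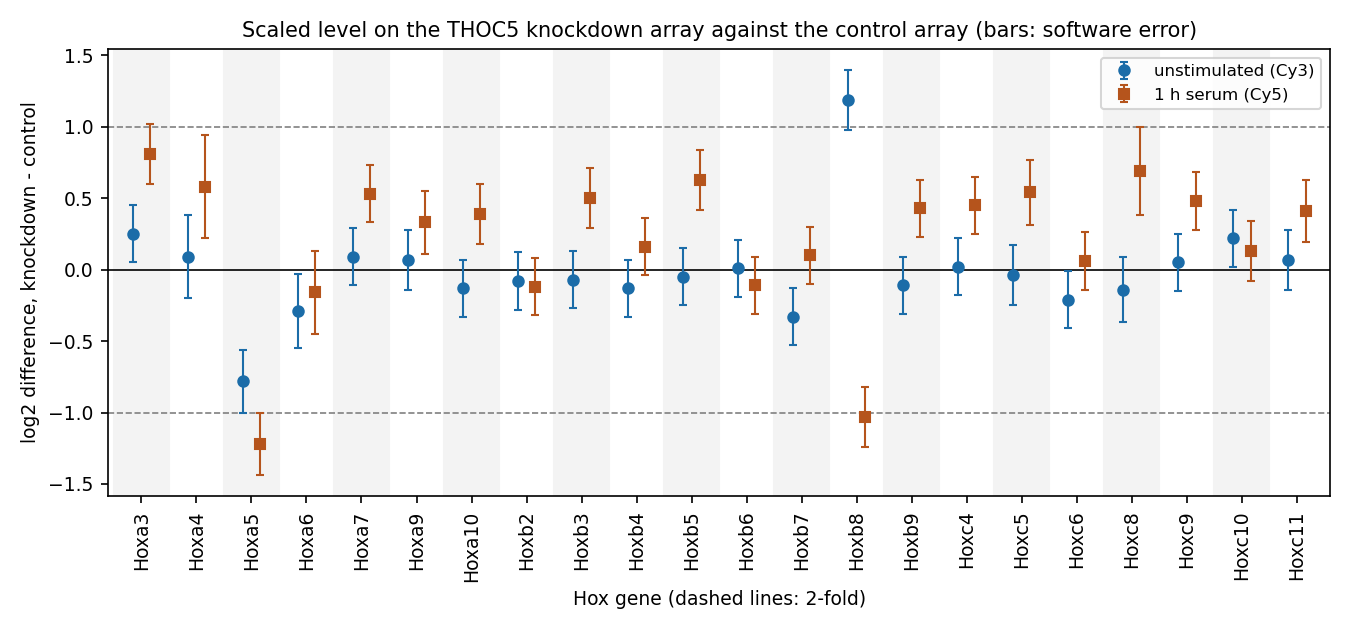
Log2 difference of the scaled signal between the THOC5 knockdown and the control array for 22 of the 23 detected Hox genes, circles for unstimulated cells (Cy3) and squares for cells after 1 h FCS (Cy5), with bars for the software error and dashed lines at 2-fold. The squares of 17 genes lie above 0 (17 of 23 lie above the median of all genes without scaling), and Hoxa5 (-0.78 and -1.22) and Hoxb8 (1.19 and -1.03) stand apart.

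Some fibroblast markers were also lower on the knockdown array. Of the 10 listed, Pdgfra (-1.27) and Col3a1 (-1.13) were lower by 2-fold or more in Cy3 and 0 were higher, against 1.44% and 1.24% of all genes, and the median of the list was -0.19 in Cy3 and -0.27 in Cy5. The median serum ratio of the same list was -0.38 on the control and -0.18 on the knockdown array, with Pdgfra at -1.06 and -0.17. Their part in the Hox values was not tested.

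**Figure D5:**
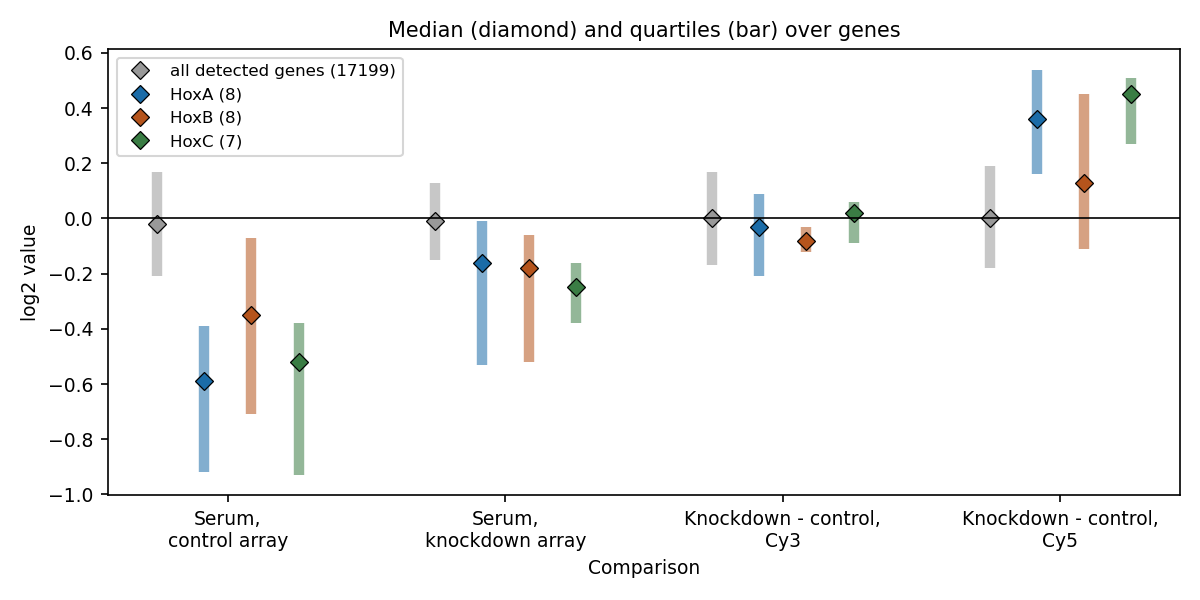
Medians (diamonds) and quartiles (bars) of the log2 value over all 17199 detected genes and over the detected genes of HoxA (8), HoxB (8) and HoxC (7), for the serum ratio on each array and for the knockdown minus control difference in each channel. In the serum ratio of control cells the medians of HoxA (-0.59), HoxB (-0.35) and HoxC (-0.52) lie below that of all genes (-0.02), and in Cy5 all 3 lie above it. Without dye normalization, run for the 23 genes together and not by cluster, the Hox median of that ratio was 0.32 and that of all genes 0.83.

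Hox proteins bind DNA together with cofactors of the TALE class of homeodomain proteins. All 9 of these on the list, of the Pbx, Meis and Pknox families, were detected, where 60.9% of all genes with a symbol were. None passed 2-fold in any comparison, where 0.215% to 2.40% of all genes did in each direction, so a count of 0 of 9 was near the background. Their median serum ratio was -0.11 on both arrays. Pbx2 was the lowest after serum in control cells, at -0.88, with -0.23 in knockdown cells.

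Polycomb and trithorax group genes maintain silent and active Hox chromatin. All 26 genes of this list were detected, where 60.9% of all genes with a symbol were. Their median serum ratio was -0.07 on the control array and 0.04 on the knockdown array. In control cells 1 of the 26 was higher and 1 lower by 2-fold or more, where 2.40% and 1.55% of all genes were, so these counts were near the background. Kdm6b, an H3K27 demethylase, went from 1098 to 4706 after serum (2.10), and on the knockdown array from 963 to 1915 (0.99). Cbx2, a Polycomb protein whose loss alters the axial skeleton, went from 435 to 193 (-1.17), and from 313 to 308 (-0.02) on the knockdown array. Among the subunits of the H3K27 methyltransferase, Ezh2, Eed and Suz12 had serum ratios between -0.19 and 0.19 on both arrays, and Ezh1, the other catalytic subunit, was at -0.46 on the control and 0.16 on the knockdown array.

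Retinoic acid is a classical inducer of anterior Hox genes. Of the 18 genes listed for this pathway 14 were detected, where 60.9% of all genes with a symbol were. After serum in control cells 1, the binding protein Crabp2, was higher by 2-fold or more (1.22) and 0 were lower, of 14, where 2.40% and 1.55% of all genes were. Between the arrays, where 1.24% to 1.62% of all genes passed 2-fold in each direction and channel, Crabp1 was lower in both channels (-1.31 in Cy3 and -1.53 in Cy5), as were Stra6 in Cy3 (-1.11) and the receptor gene Rara in Cy5 (-1.05), while Rarb was higher in Cy3 (1.06). Of the retinoic acid synthesis genes, Aldh1a1 and Aldh1a3 were above background in all 4 channels and Aldh1a2 in none. Of the degrading enzymes, Cyp26b1 was above it in 3 channels and Cyp26a1 and Cyp26c1 in none.

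Other positional genes were detected in part. Of the 8 ParaHox and Hox-linked genes 1, Cdx1, was detected, where 60.9% of all genes with a symbol were. Cdx1 was at 0.84 in Cy3 and 0.99 in Cy5 on the knockdown against the control array. Evx1 and Evx2, which flank the posterior ends of HoxA and HoxD, were above background in no channel, like the posterior Hox genes beside them. The non-coding antisense transcript Hoxa11as, the only one of 5 Hox cluster RNAs found by name on the array, was above background in all 4 channels (25.3 unstimulated in control and 14.5 after serum in knockdown cells), whereas Hoxa11 on the opposite strand was in none. Among 32 positional genes of limb, body wall and head mesenchyme outside the clusters 19 were detected, a share near the 60.9% of all genes with a symbol. The limb type genes Tbx4, Tbx5 and Pitx1 were above background in no channel. In control cells Dlx2 was higher after serum by 2-fold or more (2.66, with 1.16 in knockdown cells), and the median of this list was -0.01 against the -0.48 of the Hox genes.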

How the data were processed

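Members and gene lists were chosen with earlier results of these data known. The authors deposited scanner output (Agilent Feature Extraction 10.7.3.1, per the labels) with probe coordinates on mm9. Per the file headers, the deposited processed signals are background-subtracted intensities with linear and LOWESS dye normalization within each array, and the deposited log ratio is the log10 of Cy5 over Cy3. They were not scaled between arrays. The authors' series table holds the size of that log10 ratio without its sign (0 negative values among 44397) and was used as an alternative.

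Outlier spots were left out, and spots of a probe were averaged as log2 values. Serum ratios were converted to log2, and levels were compared between arrays after Aquantile scaling in limma 3.58.1. Detection required all 4 channels well above background. Where a channel was below it, a bound against the lowest signal above background is given. A change of 2-fold or more was counted. Errors were taken from the software's error model. With 1 array per condition, no test was made. Both arrays lay on the same slide. Some items, among them 1 Hox gene that is included in the counts, are not reported here. Every other Hox gene and Thoc5 could be named, and from each other list at most 4 members per comparison, those with the largest changes. Further list members and markers, named for their detection or as subunits of a complex, were chosen after their values were seen.

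The alternatives were normexp with an offset of 50 and loess, no dye normalization, a floor of 50, the mean of a gene's probes, outlier spots kept, detection in at least 1 channel, 1.5-fold, the series table, equal spread of log ratios, 75th percentile, quantile or no scaling, and, added after seeing the data, signals over 100 and removal of the spike-in shift. In simulated data with 200 of 17199 genes changed 3-fold, 100 in each of 2 comparisons, the procedure recovered 98.0% for the serum ratio on the control array, where it called 33 of the 16999 genes changed in neither, and 99.0% for the Cy3 level between arrays, where it called 25. The noise of the simulated spots was set by hand, with no dye bias of single probes and no spread between cultures. These shares check the calculation and do not measure how reliable the calls on the real arrays are. R 4.3.3, Python 3.11.15, numpy 2.4.6, pandas 2.3.3 and matplotlib 3.10.9 were used.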

Additional observations from a re-analysis of the deposited data

Results flagged for a closer look

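The serum response of Hoxb8 had opposite directions on the arrays, beyond the software error on each, and the difference of its log2 ratio (knockdown minus control) was -2.22. The difference was not tested, since it rests on 1 spot of 1 probe per array.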

How the results depend on the processing

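Detection in at least 1 channel added Hoxa2 and Hoxc12. No paired analysis was possible because each condition had 1 array. Without dye normalization the Hox median of the serum ratio was 0.32 on the control and 0.57 on the knockdown array (all genes 0.83 and 0.76), with 0 genes lower and 2 higher by 2-fold in control cells. With normexp and loess 2 were lower in control cells, and 0 were higher in Cy3 or lower in Cy5 between arrays. With signals over 100, 3 were lower and 0 higher after serum in control cells, 0 higher in Cy3, 0 lower in Cy5 and 0 lower for the difference of ratios. At 1.5-fold 10 were lower after serum in control cells (5.49% of all genes) and 5 in knockdown cells (1.06%), 1 was lower in Cy3 (5.05%), 3 were higher in Cy5 (5.94%) and 2 higher for the difference (4.06%). With detection in at least 1 channel 1 was lower after serum in knockdown cells, 2 were higher in Cy3 and 2 lower for the difference. With 75th percentile scaling 1 was lower in Cy5. Without scaling the median was -0.29 in Cy3, where 0 were higher, and 0.15 in Cy5 (all genes -0.26 in both), and Thoc5 was at -3.14 and -2.74. The causes were not tested beyond the fewer or more genes that the filters leave. Of 805 values of single Hox genes under the alternatives, 326 could not or did not change (a gene with 1 spot or 1 probe, for example), 373 changed by less than their software error, 106 by more, and 0 of those at 2-fold or more changed sign. Smaller values did change sign, among them serum ratios in control cells without dye normalization. There Hoxb7 went from -0.59 to 0.27 and Hoxc9 from -0.62 to 0.26, while Hoxa3 (-1.34 to -0.55) and Hoxb5 (-1.34 to -0.56) stayed below 0. Signals near the lowest above background limit what can be said of Hoxa4, Hoxa6 and Hoxc8, and 1 array per condition limits all values.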
